A study of Arabidopsis thaliana with 4 samples.

Results

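The root sodium and potassium transporters described here are 8 genes of the plasma membrane and the vacuolar and other inner membranes, out of 33056 genes annotated on the nuclear chromosomes. Members were taken by name. HKT1 (AT4G10310) and SOS1 (AT2G01980) carry sodium, and NHX1 (AT5G27150) and NHX2 (AT3G05030) carry both sodium and potassium. Those that handle mainly potassium are AKT1 (AT2G26650), HAK5 (AT4G13420), SKOR (AT3G02850) and CHX17 (AT4G23700). A peak was given to a gene when it overlapped the span from 1 kb before the transcription start site (TSS) to the end of the gene. By this rule 4 of the 8 genes, SOS1, NHX1, NHX2 and AKT1, had a peak in every library, CHX17 had a weak one in a single stress library, and HKT1, HAK5 and SKOR had none.

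Root cells take up potassium as their main osmotic ion and keep cytosolic sodium low. Potassium enters through the inward channel AKT1 and, when supply is scarce, the high-affinity carrier HAK5, and it is loaded into the xylem by the outward channel SKOR. Sodium is expelled by the Na+/H+ antiporter SOS1, is taken back from the xylem sap by HKT1, and is moved with potassium into the vacuole by NHX1 and NHX2. Trimethylation of lysine 4 on histone H3 (H3K4me3) marks the starts of transcribed genes and typically extends over the first nucleosomes of the gene body.

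H3K4me3 was profiled in Arabidopsis thaliana Col-0 root by CUT&Tag, in which a transposase tethered to the antibody cuts out the DNA around the mark. The control group (2 libraries) came from half-strength MS medium and the osmotic stress group (2 libraries) from the same medium with 250 mM sorbitol, a non-ionic osmoticum, both grown for 10 days. No sodium was added as a treatment, both groups are wild type, and whether the replicates came from separate plants is not stated, so p-values measure only the spread between these libraries. Control replicate 1 held 9011630 fragments, control replicate 2 6396842, stress replicate 1 15974955 and stress replicate 2 25714827, so that both stress libraries were deeper than both control libraries, and depth and treatment cannot be told apart. In bulk root, fewer cells carrying a mark and less mark per cell cannot be told apart either.

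Of 12 markers of root cell types, 4 had a peak in every library and 3 (GL2, COBL9 and SMB) had none. Of 9 markers of other tissues, 8 had no peak, and the floral regulator AG had one in control replicate 2 and stress replicate 2. The number of nuclear peaks ranged from 12698 to 15783 per library. Signal below is the pileup, the number of fragments stacked at a peak's summit, scaled to 1000000 fragments of its library (FPM). Fold enrichment divides the pileup by the background the caller estimated around the peak in that library. Values for all 4 libraries are given in the order control 1, control 2, stress 1, stress 2.

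The sequence just before the start was covered by peaks to differing degrees at genes of this group. Each is given 5′ to 3′ on the gene's strand from the TAIR10.1 assembly of RefSeq, and capitals mark bases that lay under a peak in every library. At SOS1 (chr2:456802-457001, + strand) 196 of the 200 bases before the TSS were covered in all libraries, at NHX1 (chr5:9553100-9553299, + strand) 23 of 200, and at HKT1 (chr4:6391654-6391853, + strand) 0 of 200. AKT1 (sequence not shown) also had 0 of 200 covered, although it had a peak in every library. Coverage before the TSS thus does not tell genes with a peak from those without. The last sequence is the gap of 187 bases between the 3′ end of NHX2 and the start of its neighbour ACP1 (chr3:1392955-1393141, − strand), all of it covered, where the strongest peak in the NHX2 span lay.
SOS1: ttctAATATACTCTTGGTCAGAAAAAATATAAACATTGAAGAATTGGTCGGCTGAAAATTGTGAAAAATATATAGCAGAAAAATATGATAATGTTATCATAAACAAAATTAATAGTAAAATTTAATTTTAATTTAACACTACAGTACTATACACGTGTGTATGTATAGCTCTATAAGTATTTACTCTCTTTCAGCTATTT
NHX1: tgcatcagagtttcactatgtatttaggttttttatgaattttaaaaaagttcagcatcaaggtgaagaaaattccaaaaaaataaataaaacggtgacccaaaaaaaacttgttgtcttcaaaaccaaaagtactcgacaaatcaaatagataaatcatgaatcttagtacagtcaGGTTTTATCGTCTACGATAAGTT
HKT1: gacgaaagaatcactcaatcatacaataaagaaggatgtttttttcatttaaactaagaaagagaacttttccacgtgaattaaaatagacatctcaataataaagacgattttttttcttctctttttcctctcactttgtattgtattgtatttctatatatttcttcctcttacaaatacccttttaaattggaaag
ACP1-NHX2: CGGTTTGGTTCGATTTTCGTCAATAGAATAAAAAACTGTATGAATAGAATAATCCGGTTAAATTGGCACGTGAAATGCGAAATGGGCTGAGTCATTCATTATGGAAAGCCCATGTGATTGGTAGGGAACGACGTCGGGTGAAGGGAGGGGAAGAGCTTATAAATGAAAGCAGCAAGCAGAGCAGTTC

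Short motifs known from stress-responsive plant promoters were searched for on both strands of the 250 bases before each TSS, and positions count back from the TSS to the motif's leftmost base. The SOS1 sequence holds a G box (CACGTG) at −49, which overlaps ABRE cores (ACGTG) at −49 and −48, and a DRE core (CCGAC) at −154. HKT1 holds a G box at −128, which overlaps ABRE cores at −128 and −127, and AKT1 a W box (TTGACC) at −122. HAK5 and SKOR have an ABRE core at −137 and −235, and NHX1, NHX2 and CHX17 have none of the 4 motifs. Of all 27444 protein-coding promoters of this length, 22.9% hold an ABRE core, 12% a DRE core, 12.2% a W box and 6.49% a G box. The G box of SOS1 lay under a peak in every library and that of HKT1 in none.

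**Figure D1:**
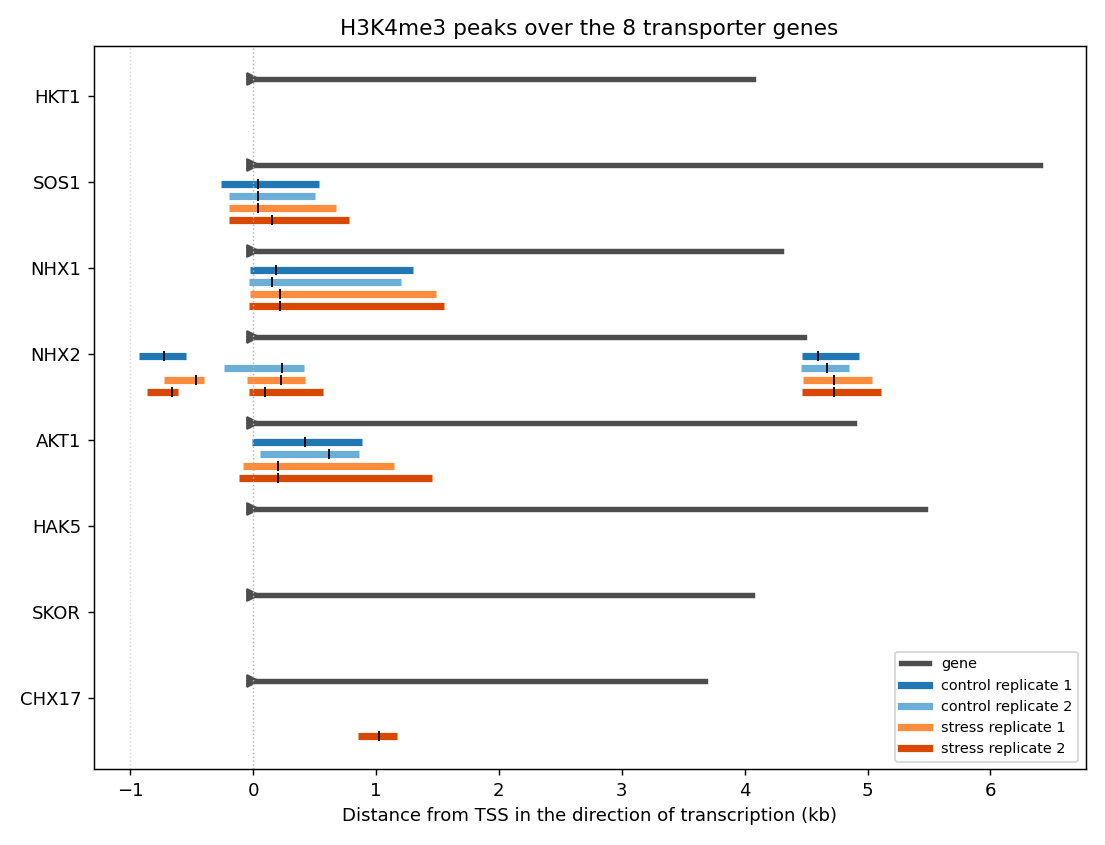
Peaks over the 8 genes, with the distance from the TSS in kb on the x axis and 1 gene per row. Grey bars are genes, coloured bars the peaks of each library, and black ticks their summits. SOS1, NHX1 and AKT1 have 1 peak at or near the start in every library, the NHX2 span has peaks at both ends, and HKT1, HAK5 and SKOR have none.

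SOS1, the plasma membrane Na+/H+ antiporter that exports sodium from root cells, lies on chromosome 2 from 457002 to 463408. It had a single peak over its TSS in each library. Its pileup was 114, 88, 250 and 333 fragments, and its signal was 12.7, 13.8, 15.6 and 12.9 FPM. The control libraries lay on both sides of stress replicate 2, so the groups overlapped. Both stress libraries lay above both control libraries at 30.3% of all genes compared. Mean signal was 13.2 ± 0.782 FPM in control and 14.3 ± 1.91 in stress (SD, n = 2 each), a log2 change of 0.11 with a 95% interval of −0.15 to 0.37 (limma across 16597 genes, adjusted p = 0.58). Fold enrichment was 4.80, 5.27, 5.25 and 5.30, also overlapping (log2 change 0.07, limma adjusted p = 0.67). The summit stood in the 5′ UTR at 39, 38 and 39 bp after the TSS in the first 3 libraries and in the coding sequence at 157 bp in stress replicate 2.

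NHX1, the vacuolar Na+,K+/H+ antiporter, lies on chromosome 5 from 9553300 to 9557594 and had the highest signal of the 8 genes on average. Its pileup was 151, 86, 280 and 369 fragments, which gave 16.8, 13.4, 17.5 and 14.3 FPM. Replicate 1 was above replicate 2 in both groups, and the spread within a group exceeded the difference between groups. Mean signal was 15.1 ± 2.34 FPM in control and 15.9 ± 2.25 in stress (SD, n = 2 each), with a log2 change of 0.08 and an interval of −0.18 to 0.34 (limma adjusted p = 0.70). Fold enrichment was 7.15, 5.74, 6.36 and 6.12 (log2 change −0.04, limma adjusted p = 0.84). The mark began at the start of NHX1 and ran into the gene: the peak opened at −37 to −23 bp from the TSS and closed 1201 to 1550 bp after it, with summits in the 5′ UTR at 152 to 218 bp.

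NHX2, the close relative of NHX1 in the tonoplast, lies on chromosome 3 from 1393142 to 1397627 on the − strand. The strongest peak in its span was at the 3′ end and its summit lay within 72 bp of the start of ACP1 (AT3G05020), which encodes a plastid acyl carrier protein. That shared peak had 12.8 and 11.7 FPM in control and 10.8 and 11.5 in stress, with both stress libraries below both control libraries, as at 30.6% of all genes compared. Its log2 change was −0.13 with an interval of −0.40 to 0.13 (limma adjusted p = 0.50), and its fold enrichment of 3.50, 3.06, 2.78 and 2.99 did not pass either (limma adjusted p = 0.29). With only peaks whose summit lay within 1 kb of the NHX2 start, the log2 change was 0.44 (limma adjusted p = 0.060), a value that sets the upstream peak of control replicate 1 beside the start peak of the other libraries. In fold enrichment, 27.5% of genes had both stress libraries below both control libraries.

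The start of NHX2 itself carried a much weaker peak in 3 of 4 libraries. Control replicate 1 had none, control replicate 2 had 31 fragments (4.85 FPM), stress replicate 1 had 88 (5.51 FPM) and stress replicate 2 had 158 (6.14 FPM). Fold enrichment at this peak was 2.73, 2.94 and 3.58 in those 3 libraries, with summits in the 5′ UTR at 232, 231 and 96 bp after the TSS. It ranked between percentile 2.40 and 7.22 of the signal of all genes compared in each library, whereas the NHX1 peak ranked between 51.5 and 71.5. All 3 peaks would still pass the caller's cutoff at the depth of the shallowest library, with −log10 p of 6.94, 8.12 and 11.3. The noncoding gene AT3G01555 lies on the opposite strand under the same peak (chromosome 3 from 1397170 to 1397440). The peaks carry no strand, so which of the genes this peak belongs to cannot be told. A further weak peak stood upstream of NHX2, with summits at −728, −467 and −658 bp from the TSS in control replicate 1 and both stress libraries, at 3.77, 2.94 and 2.37 FPM.

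AKT1, the Shaker-type channel for inward potassium current in the root, lies on chromosome 2 from 11331850 to 11336738 on the − strand. Its pileup was 126, 88, 218 and 305 fragments, and its signal was 14, 13.8, 13.6 and 11.9 FPM. Both stress libraries were below both control libraries, though stress replicate 1 only by a small margin. Mean signal was 13.9 ± 0.159 FPM in control and 12.8 ± 1.26 in stress (SD, n = 2 each), a log2 change of −0.12 with an interval of −0.38 to 0.13 (limma adjusted p = 0.52). Fold enrichment went the other way, at 3.55 and 3.51 in control against 3.56 and 3.81 in stress (log2 change 0.06, limma adjusted p = 0.74). Both stress libraries exceeded both control libraries in fold enrichment at 33.2% of all genes. The summit of AKT1 was less fixed than those of the antiporters: it stood 425 bp after the TSS in a coding exon and 619 bp after it in an intron in the control libraries, and at 202 bp in the 5′ UTR in both stress libraries. In control replicate 2 the peak began 55 bp after the TSS and did not reach it.

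HKT1, which retrieves sodium from the xylem, lies on chromosome 4 from 6391854 to 6395922 and had no peak in any library. The nearest peaks lay 5713 to 5867 bp before its span, at AT4G10300, and 7849 to 7948 bp after it, at AT4G10320. For osmotic stress, the paper reports HKT1 as enriched in the stele in its single-nucleus RNA data. RNA by cell type was not examined here. HAK5, the high-affinity potassium carrier known to be induced by potassium starvation, lies on chromosome 4 from 7796782 to 7802251. It was also without a peak, and the nearest ones were 3399 to 3904 bp away at IIL1 and 5245 to 5415 bp away at AT4G13400. SKOR, the outward channel of the xylem parenchyma, lies on chromosome 3 from 619678 to 623739 and had none, with peaks 717 to 1961 bp away at AT3G02840 and 1933 to 2075 bp away at AT3G02860. Of 27444 protein-coding genes, 32.1% had no peak in any library, 3.25% in 1, 5.52% in 2, 4.92% in 3 and 54.3% in every library. At the median background, the caller's p cutoff asked for 5.55 and 6.25 FPM in control replicates 1 and 2 and for 5.01 and 4.2 in stress replicates 1 and 2. Peaks were called below those levels where the local background was lower, and the weakest peak of a library had between 0.467 and 1.41 FPM. The tables give no value at HKT1, HAK5 and SKOR, so the absence of a peak there is not a measure of no mark.

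CHX17, a cation/H+ exchanger of the root cortex and epidermis that takes part in potassium balance, lies on chromosome 4 from 12342376 to 12346051 on the − strand. It had a peak in stress replicate 2 alone, as did 2.42% of protein-coding genes. This was the deepest library. The peak was 320 bp long with its summit in an intron 1028 bp after the TSS, at 61 fragments, 2.37 FPM and a fold enrichment of 2.22. Of the peaks of that library, 4.02% were as low or lower in pileup. Scaled to the depth of the shallowest library it had a −log10 p of 2.87 and would not pass the caller's cutoff of 1e-05. The 3 other libraries had their nearest peaks 2319 to 2458 bp away at DIR6 and 2964 to 3024 bp away at VAG2.

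**Figure D2:**
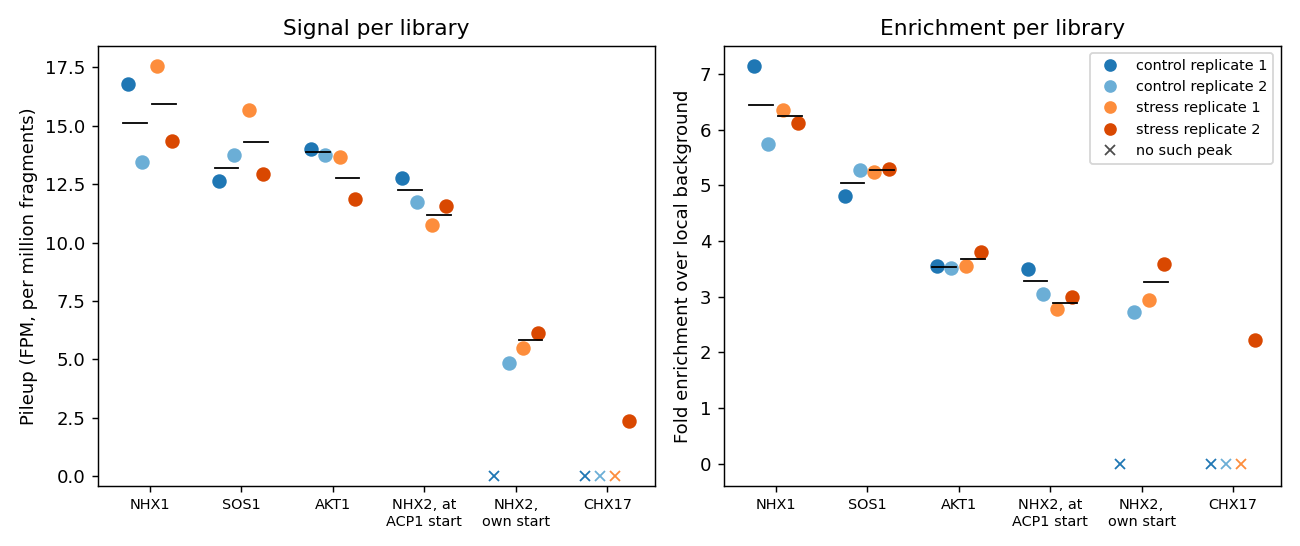
Pileup in FPM (left) and fold enrichment (right) for each peak and library. Points are libraries, short lines are means of a group with 2 values, and crosses at 0 stand for a library with no such peak. Signal of NHX1, SOS1 and AKT1 overlaps between 11.9 and 17.5 FPM, whereas their fold enrichments form separate ranges.

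Averaged over the 4 libraries, signal was 15.5 ± 1.94 FPM at NHX1, 13.8 ± 1.35 at SOS1, 13.3 ± 0.977 at AKT1 and 11.7 ± 0.821 at the peak between NHX2 and ACP1 (SD). Neighbours in this order overlapped in their values across libraries. In fold enrichment the same 4 peaks kept their order without overlap: NHX1 ranged from 5.74 to 7.15, SOS1 from 4.80 to 5.30, AKT1 from 3.51 to 3.81 and the peak between NHX2 and ACP1 from 2.78 to 3.50. The local background was 3.08 to 3.85 FPM around AKT1, 2.41 to 2.93 around SOS1 and 2.21 to 2.70 around NHX1. None of the 4 genes was called in signal or in fold enrichment by limma (0 of 4, and 0 of 4 at an unadjusted p under 0.05). Across the 16597 genes with a peak in every library, limma called 8.38% higher and 11.1% lower in signal, and 7.68% higher and 6.1% lower in fold enrichment. The intervals above allow changes of up to about 0.4 on the log2 scale in signal, so a p that misses the threshold does not show that the groups were equal. Both measures are relative to the library's own fragments or background, so a change shared by all genes may not show in them. The paper reports a significant rise in the level of the mark under osmotic stress, which was not tested here.

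In length of the peaks the groups did not overlap at any of these 4 genes. In signal and in fold enrichment they overlapped at SOS1 and NHX1 but not at NHX2 and AKT1. At AKT1 the peak was 889 and 807 bp long in control and 1233 and 1576 bp in stress, a log2 change of 0.72 with an interval of 0.27 to 1.17 (limma adjusted p = 0.066). At NHX1 it was 1326 and 1239 bp against 1510 and 1588 bp (log2 change 0.27, interval 0.03 to 0.51, limma adjusted p = 0.10). At SOS1 it was 799 and 703 bp against 871 and 980 bp (log2 change 0.30, interval −0.07 to 0.67, limma adjusted p = 0.16). The summed length of the peaks in the NHX2 span was 852 and 1050 bp against 1376 and 1501 bp (log2 change 0.60, interval 0.20 to 1.0, limma adjusted p = 0.070). That sum took in 2 peaks in each control library and 3 in each stress library. The peak at the start of ACP1 made up 463 and 394 bp of it in control and 568 and 641 bp in stress. In summed length both stress libraries were thus above both control libraries at all 4 genes. So they were at 75.6% of all genes compared, with the opposite at 2.36%. None of the 4 passed after adjustment. At an unadjusted p under 0.05 limma gave 3 of the 4 as longer, and 6761 of all 16597 genes.

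Length moved with depth. The median over all genes was 1023, 908, 1224 and 1287 bp, a median log2 change of 0.33, and limma called 7.92% of genes longer and 0.247% shorter in stress. At SOS1, NHX1 and AKT1 the 4 lengths followed the order of fragments in the libraries, as at 39.9% of genes, and control replicate 1, the deeper of the control libraries, had the longer peak each time. At NHX2 that library had the shorter length, and the peak over the start was absent there. Relative to the median of all genes, AKT1 and the summed peaks of the NHX2 span were longer by more and SOS1 and NHX1 by less. Whether the treatment had a part in these lengths cannot be told apart from depth.

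**Figure D3:**
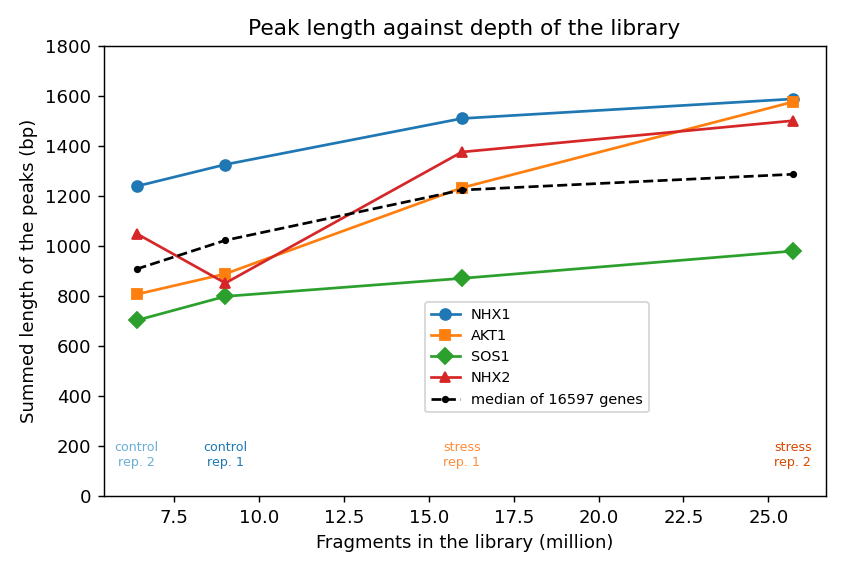
Summed length of the peaks in bp (y axis) against the depth of each library (x axis) for NHX1, AKT1, SOS1 and NHX2, and the median of all genes (dashed). Each line joins the 4 libraries in order of depth. AKT1 rises from 807 to 1576 bp and the median of all genes from 908 to 1287 bp.

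At SOS1 and NHX1 the added length lay on the side of the gene body, and at AKT1 it lay on both sides of the peak. NHX2, whose length was a sum over several peaks, was left out of this comparison of edges. The downstream edge of the peak moved from 533 and 506 bp after the TSS in control to 672 and 783 bp in stress at SOS1, from 1298 and 1201 to 1486 and 1550 bp at NHX1, and from 883 and 861 to 1147 and 1459 bp at AKT1. Mean differences were 208, 268.5 and 431 bp, against a median of 178.5 bp over 8912 genes with a peak over the TSS in every library, 84.1% of which had the edge farther out in both stress libraries. The upstream edge of NHX1 stayed between −37 and −23 bp from the TSS, and that of SOS1 at −198 to −196 bp in all but control replicate 1, where it was at −265 bp. AKT1 differed, with an upstream edge at −5 and 55 bp from the TSS in control and at −85 and −116 bp in stress. The upstream edge was farther out in both stress libraries at 36.7% of genes.

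Beside these 8 genes, 57 other genes of sodium and potassium transport and its regulation were examined. Of these, 32 had a peak in every library and 14 in none, where 54.3% and 32.1% of all protein-coding genes did. The KEA antiporters of plastids and the endomembrane system were marked in every library at 6 of 6 genes, and the KUP/HAK carriers at 9 of 12. The other Shaker channels were marked in every library at 1 of 7, with 4 of 7 unmarked. The CHX exchangers on the list were marked at 4 of 14, with 7 unmarked, and the list does not hold every CHX gene. No test was made between families. Of the 32 genes marked in every library, 22 had summits nearest their own start. These were 5 of 6 KEA, 7 of 9 KUP/HAK, 1 of 4 CHX and 0 of 1 Shaker genes, with the peaks of CHX2, CHX18 and CHX23 nearest the starts of AT1G79390, BTI3 and HEXO2. The outward channel of guard cells and root hairs GORK, the carrier TRH1, needed for root hair growth, and TPK2, KUP12 and CHX19 had peaks under stress only, in each of the 2 deeper libraries. These are 5 of the 57 genes, against 4.66% of protein-coding genes with that pattern and 0.164% with peaks in the control libraries only. The peak at CHX19 was nearest the start of AT3G17626.

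Of the 32 genes, limma called 6 higher and 4 lower in signal, against 8.38% and 11.1% of all genes compared, with a median log2 change of 0.12 and a range of −1.13 to 0.74. The largest fall was at CHX21, a cation exchanger of the root endodermis, from 9.32 and 10.8 FPM in control to 4.69 and 4.47 in stress (log2 change −1.13, limma adjusted p = 1.1e-06). With 1 library left out its log2 change of signal was −1.24 to −1.02. In fold enrichment its log2 change was smaller, at −0.32 (limma adjusted p = 0.045). CHX23 was higher (7.1 and 5.78 against 10.4 and 11.0 FPM, log2 change 0.74, limma adjusted p = 0.00035), and its peak lay nearest the start of HEXO2, not of CHX23. TPK3, a potassium channel of the TPK family, was at 13.2 and 11.7 against 17.5 and 17.1 FPM (log2 change 0.48, limma adjusted p = 0.0047). NHX8, a relative of SOS1, was higher by 0.43 on the log2 scale (limma adjusted p = 0.0087), under a peak nearest the start of AT1G14670. Without control replicate 2 neither TPK3 (limma adjusted p = 0.093) nor NHX8 (limma adjusted p = 0.10) was called.

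The other calls were each lost without at least 1 of the libraries. NHX5, the endosomal relative of NHX1, was at 13.2 and 11.9 against 17.9 and 15.3 FPM (limma adjusted p = 0.019), and was not called without control replicate 2 or without stress replicate 1 (limma adjusted p = 0.18 and 0.19). SOS3, the calcium sensor that activates the SOS2 kinase and through it SOS1, was at 8.43 and 8.44 against 11.0 and 11.7 FPM (limma adjusted p = 0.023). Its highest peak was nearest the start of AT5G24260 in some libraries, and with summits limited to 1 kb from the TSS its log2 change was −0.10. SOS3 and the vacuolar antiporter NHX3 (log2 change −0.43, limma adjusted p = 0.043) lost the call whichever library was left out, with limma adjusted p of 0.053 to 0.18 and 0.072 to 0.20. KEA2 (log2 change −0.41, limma adjusted p = 0.029), a plastid K+/H+ antiporter, fell from 27.6 and 26.6 FPM to 24.8 and 16.7, and stayed called only without stress replicate 1. KUP8 (log2 change −0.41, limma adjusted p = 0.035) stayed called only without control replicate 2. In fold enrichment limma called 4 of the 32 higher (NHX5, NHX8, KEA1 and KEA4), against 7.68% of all genes, and CHX21 lower (adjusted p = 0.045). The number called higher was 8 without control replicate 1 and 1 without stress replicate 2, and the peak at KEA1 was nearest the start of PLIM2b in some libraries. CHX23 and TPK3 were not called by that measure, at log2 changes of 0.29 and 0.09 (limma adjusted p = 0.077 and 0.59). In length 3 of the 32 were called higher and 0 lower by limma, against 7.92% of all genes called longer. At an unadjusted p under 0.05 limma gave 14 longer and 0 shorter of the 32, against 6761 and 125 of all 16597 genes. No length call was made with the replicate number as a block or without control replicate 2, stress replicate 1 or stress replicate 2 (limma, 10, 9, 6 and 5 longer at an unadjusted p under 0.05), and 10 were made without control replicate 1.

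**Figure D4:**
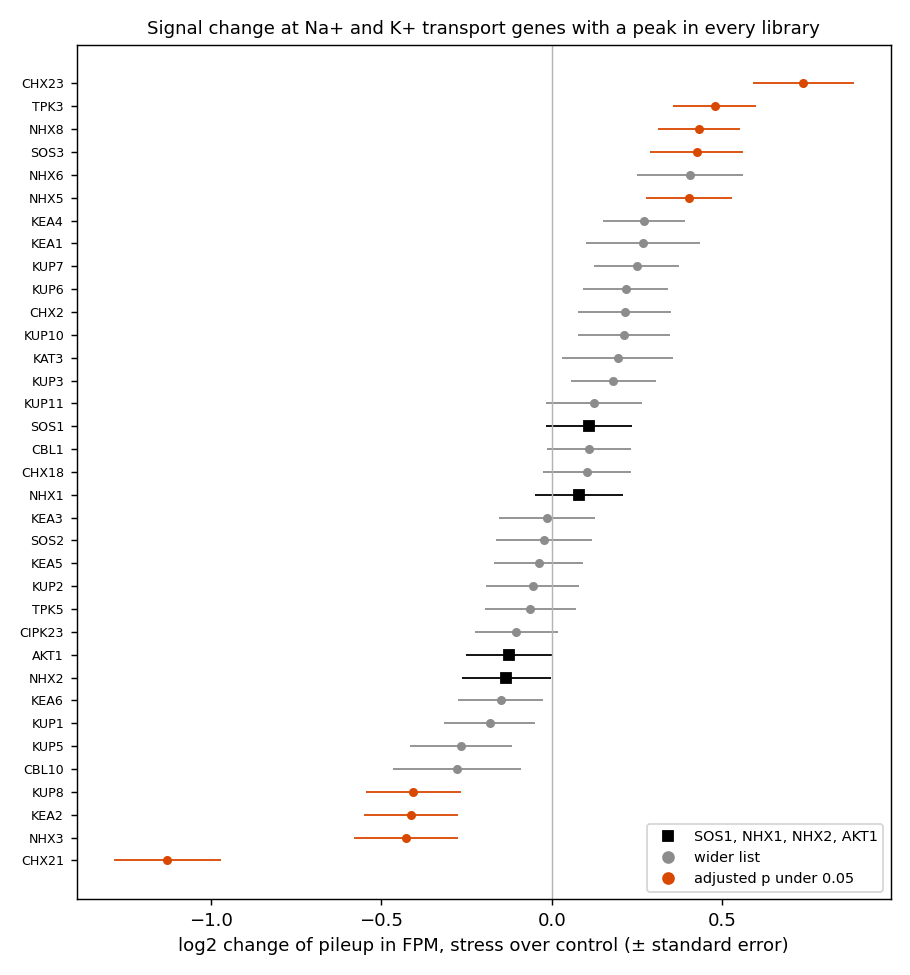
The log2 change of pileup in FPM, stress over control, with its standard error from limma (x axis) for the 4 transporters (squares) and 31 of the 32 genes of the wider list (circles) with a peak in every library. Orange marks an adjusted p under 0.05. SOS1, NHX1, NHX2 and AKT1 lie between −0.13 and 0.11, inside the range from CHX21 (−1.13) to CHX23 (0.74).

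The regulators that act directly on the transporters were examined by name. SOS2, the kinase that phosphorylates SOS1, was at 8.54, 10.2, 9.33 and 9.02 FPM, with a log2 change of −0.02 (limma adjusted p = 0.93). CIPK23, the kinase that activates AKT1 and HAK5, was at 20.3, 17.8, 18.3 and 17.1 FPM, a log2 change of −0.10 (limma adjusted p = 0.58). Its partner, the calcium sensor CBL1, was at 19.4, 16.4, 18.6 and 19.9 FPM (limma adjusted p = 0.56). CBL9 had a peak in stress replicate 2 alone and RAP2.11, a transcription factor acting on HAK5, had none. CBL10, which directs SOS2 to membranes, was marked weakly at 4.44, 4.53, 3.63 and 3.77 FPM (limma adjusted p = 0.30). Both stress libraries were lower, as at 30.6% of all genes compared. Its summed peak length was called longer in stress (log2 change 0.96, limma adjusted p = 0.041), a measure that moved with depth.

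Likeness of profile was measured as the Euclidean distance over the 4 log2 signals, among the 32 genes of the wider list. The nearest gene to SOS1 was NHX5, at 0.38, and the nearest to NHX1 was KUP6, a potassium carrier, at 0.27. The nearest to the NHX2 span was the channel TPK5, at 0.25, and the nearest to AKT1 was the carrier KUP1, at 0.37. KUP1 was at 12.3, 12.8, 12.5 and 9.80 FPM, below AKT1 in each library and, like AKT1, lowest in stress replicate 2. With 4 libraries these distances describe the level as much as the change.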

How the data were processed

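The 4 H3K4me3 CUT&Tag libraries (2 control, 2 stress) were read from 1 peak table each. For every peak the authors deposited its length in bp, the pileup (a signal in fragments, not scaled to depth), the fold enrichment (a ratio to the local background), and −log10 values of p and q. Per the file headers, peaks were called in each library by MACS 2.2.7.1 on paired fragments at a p cutoff of 1e-05. The headers give an effective genome size of 2700000000 bp and a background taken from the surrounding 10000 bp. That size far exceeds the Arabidopsis genome, whose longest chromosome has 30427671 bp. How this setting affected the calling of weak peaks, such as that of CHX17, was not tested. The submitters' processing notes name fastp 0.19.7, Bowtie2 2.3.5.1, MACS2, ChIPseeker 1.1.16 and 1.28.3, DiffBind 2.10.0 and TAIR10. Genes were taken from TAIR10.1 of RefSeq, whose 5 chromosomes end after the last peaks.

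The pileup was scaled to 1000000 fragments with the total in each file's header. The highest peak overlapping a span gave the gene's value. The start nearest a summit was sought among protein-coding genes only. Log2 values of the 16597 genes with a peak in every library were compared by lmFit and eBayes with a trend (limma 3.58.1, R 4.3.3), with Benjamini-Hochberg adjustment over all genes and a threshold of 0.05. These genes share 11910 sets of peaks. Python 3.11.15 with pandas 2.3.3 was used otherwise. Tested on simulated data for the signal of 16597 genes, limma called 0 without a change, and recovered 58.5% of 200 genes changed by 1 on the log2 scale with 1 false call. The simulated noise was independent between genes and libraries, with no effect of depth and no shared peaks. It therefore does not give the rate of false calls in these data.

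The members and lists were chosen with earlier results of these data known. Named were all 8 transporters, the called genes of the wider list (up to 5 each way), the nearest gene in likeness, and genes under the same peak. The other wider list genes with stress peaks only and the regulators were named after their values were seen. No amino acid sequences were used here, and 1 gene counted in the wider list is not reported here.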

Additional observations from a re-analysis of the deposited data

How the results depend on the processing

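None of SOS1, NHX1, NHX2 and AKT1 was called in signal under any alternative that scaled to depth and kept the gene, leaving out each library included, but directions changed. NHX2 and AKT1 could not be compared with peaks of a fold enrichment of at least 4, since none of theirs reached it. With summits limited to 1 kb from the TSS, which leaves out the peak at ACP1, the log2 change of NHX2 was 0.44 (limma adjusted p = 0.060). In fold enrichment NHX1 was at −0.039 and AKT1 at 0.059. Leaving out 1 library gave −0.027 to 0.25 for SOS1 and −0.079 to 0.24 for NHX1 in signal, and −0.20 to 0.12 for NHX1 in fold enrichment. With the pileup not scaled to depth, their log2 changes were 1.53, 1.5, 1.28 and 1.29, which turned NHX2 and AKT1 around, 15239 genes were called higher by limma and 0 lower (at an unadjusted p under 0.05, again 0), and in the wider list 29 and 0. The median pileup scaling gave 3015 genes lower, and 31.8% of calls were then higher, against 42.9% in the comparison as reported. Fold enrichment in place of pileup gave 1012 lower (55.7% of calls higher) and 1 lower in the wider list. Peaks with a fold enrichment of at least 4 gave 479 higher and 815 lower, 2 lower in the wider list and 1 longer there, and left 2 transporters with a peak in every library and 6 with none. Filling missing values gave 467 lower (72.1% of calls higher) and 1 lower in the wider list.

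The labels do not say whether replicate numbers pair the libraries. Deviations of same-numbered libraries correlated at −0.0025 over genes, which does not settle how they were prepared. With the number as a block, 1363 genes were higher and 1717 lower in signal. In length the block left 0 longer and 0 shorter genes and 0 in the wider list (limma, 4748 and 99 at an unadjusted p under 0.05, and 10 in the wider list).

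Leaving out 1 library at a time gave 784 to 941 genes higher and 933 to 2665 lower in signal, and 1 to 6 and 1 to 3 in the wider list. In fold enrichment it gave 315 to 1914 higher and 342 to 1275 lower, and 1 to 8 and 0 to 1 in the wider list. In length it gave 0 to 4125 longer and 0 to 58 shorter, and 0 to 10 longer in the wider list. Calls of length were made only without control replicate 1. Without the others there were 0 in limma, against 5763, 3260 and 2185 longer genes at an unadjusted p under 0.05 without control replicate 2, stress replicate 1 and stress replicate 2. Leaving out a library, chosen for the presence of peaks after seeing the data, gave 4 to 4 transporters with a peak in every library and 3 to 4 with none. For each of these shifts, the cause was not tested. An arm left with 1 library was assumed to vary like the other.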
